A study of Mus musculus with 12 samples.

Results

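Mouse embryonic stem cells (ESCs) in which *Pcx*, *Me1* and *Me2* were repressed together (the 3xKD line) were compared with ESCs that carried scramble guide RNAs (the Neg line). The comparison rests on 6 of the 12 libraries of the series, 3 of each line, which were picked by sample title and library name. The other 6 libraries hold the same lines as epiblast-like cells (EpiLCs) on day 2 and are used for one contrast near the end. Both lines come from 1 picked clone of E14, a male ESC line, which carries a doxycycline (DOX) responsive activator under the CAG promoter and, under a DOX-responsive promoter, a catalytically dead Cas9 in a repressor fusion that includes KRAB and HaloTag, placed at the *Tigre* locus. The Neg line received 4 scramble guide RNAs and the 3xKD line received guide RNAs against the 3 genes, each from a piggyBac vector that inserts at sites that are not controlled. As ESCs, both were grown on fibronectin in N2B27 medium with the 2i inhibitors and LIF, and puromycin, blasticidin and hygromycin were kept in the medium. The study's methods describe RNA-seq cultures of both lines with DMSO or with DOX, and its figure legend for these expression data names DOX. The sample labels name neither, so DOX is taken here as common to both groups from that legend. Each guide set is represented by 1 line, so an effect of the guides and any other difference between these lines cannot be told apart. The methods speak of biological triplicates in general. The labels do not say that the 3 libraries of a group came from separate cultures, and the p-values then measure only the spread between these libraries.

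Pyruvate carboxylase (*Pcx*) adds a carbon to pyruvate in mitochondria to give oxaloacetate, and the malic enzymes of the cytosol (*Me1*) and of mitochondria (*Me2*) turn malate back into pyruvate while reducing NADP or NAD. Together they make a loop that links the tricarboxylic acid cycle to pyruvate and to reducing power for lipid synthesis and antioxidant defence. ESCs kept in 2i and LIF stay in naive pluripotency because a MEK inhibitor blocks the ERK branch of MAPK signalling, a GSK3 inhibitor mimics WNT signalling and LIF activates STAT3. Which genes outside central metabolism and the pluripotency network differ when that loop is repressed is the question addressed here.

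The guide RNAs are shown because their position fixes what the repressor could reach. Their bases come from the supplementary material of the study and were matched to the mouse genome (GRCm39, GENCODE vM39), with lower case for the guide and capitals for the 3 bases of the adjacent PAM in the genome.
Pcx guide: aggcaggggccgtcagaggCGG
Me1 guide: agaagcgctgagtcacggCGG
Neg#1 guide: ggaaccacatggaattcga
Neg#4 guide: cctgcagcggaccccgcga
The *Pcx* guide matches chr19:4560559-4560577 on the plus strand, with its centre 83 bp downstream of the canonical transcript start and within the first exon, in the 5′ UTR. The *Me1* guide matches chr9:86577959-86577976 on the plus strand, 137 bp downstream of the canonical start of this minus-strand gene, also in a 5′ UTR exon, and its 18 printed bases leave out a leading g that is not part of the site. None of the 4 scramble guides had an exact match beside an NGG PAM. The third targeting guide is not printed.

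All 3 targeted genes were lower in every 3xKD library than in every Neg library. In CPM, the count of a gene scaled to library size with TMM factors, *Pcx* stood at 36.3, 36.8 and 35.7 in Neg ESCs and at 16.2, 16.3 and 16.8 in 3xKD ESCs. *Me1* stood at 67.5, 70.1 and 69.9 in Neg and at 37.2, 38.6 and 36.2 in 3xKD, and *Me2* at 103, 104 and 96.4 in Neg and at 53.02, 54.1 and 49.7 in 3xKD. The log2 fold changes were −1.14 (SE 0.071), −0.89 (SE 0.057) and −0.95 (SE 0.047).

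Genes beside the guide sites were also measured. *Prss35*, which encodes a serine protease and starts 38941 bp from the start of *Me1*, had 16.9, 16.6 and 18.9 CPM in Neg and 5.96, 5.55 and 5.81 in 3xKD, a log2 fold change of −1.60 (SE 0.15; quasi-likelihood test of edgeR, Benjamini-Hochberg adjusted p = 2.1e-07). The other tested genes with a start within 50 kb of a targeted start did not pass the test. They were *A330041J22Rik* (591 bp from *Me1*, 12 counts in Neg and 3 in 3xKD), *Syt12* (0.67, SE 0.36) and *Mro* (−0.82, SE 0.98). Sites with up to 3 mismatches to a targeting guide and a PAM lay within 1000 bp of a transcript start of 47 tested genes. Of these 4 (8.51%) were called higher and 2 (4.26%) lower, close to the shares of all genes given next. The 2 called lower were *Ctdnep1* (−0.75, SE 0.053) and *Rnf125* (−1.29, SE 0.17).

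Of 25446 genes with at least 10 counts over the 12 libraries, 3885 (15.3%) were called, which means that the adjusted p lay under 0.01 and the log2 fold change beyond 0.58 in either direction. Of all tested genes 2164 (8.50%) were called higher in 3xKD and 1721 (6.76%) lower, and the median log2 fold change was 0.03. The changes were mostly moderate. Of the genes called higher 1109 differed by more than 1 on the log2 scale and 219 by more than 2, and of those called lower 740 and 184 did. In 12478 genes (49.0% of those tested) the 3 libraries of one line did not overlap with the 3 of the other. Calls depended on level. Among genes under 1 CPM 2.16% were called higher and 1.33% lower, among genes from 1 to under 10 CPM 19.9% and 12.1%, from 10 to under 100 CPM 10.4% and 11.2%, and at 100 CPM or more 6.01% and 5.88%. Bulk RNA does not separate a higher level per cell from a larger number of cells that express a gene, and these cannot be told apart in any result here.

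**Figure D1:**
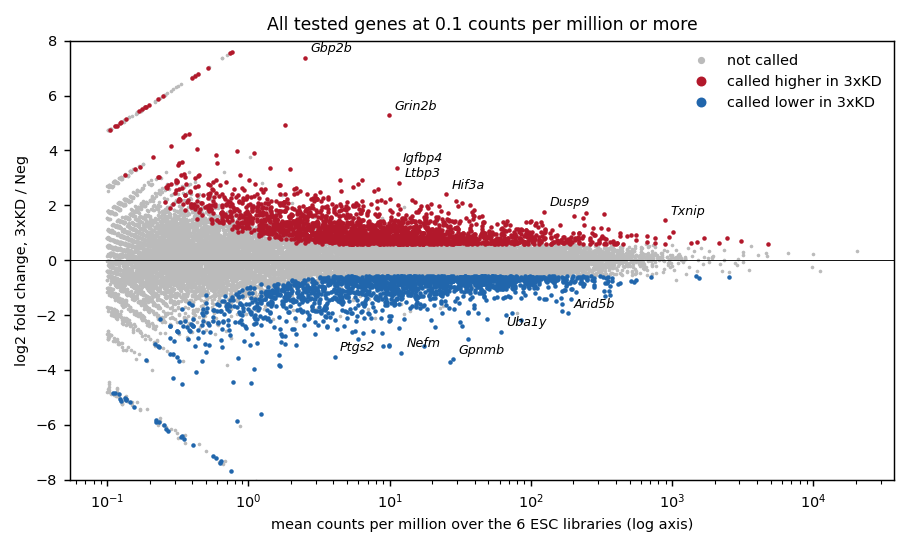
Each point is a tested gene with a mean of at least 0.1 CPM over the 6 ESC libraries (22197 genes), with its mean CPM on a log axis and its log2 fold change between 3xKD and Neg ESCs. Red and blue points are called higher and lower, 22 genes lie beyond the plotted fold changes, and the slanted lines at the left are genes with 0 counts in one group. The called genes lie on both sides at every level, and the largest changes lie below 100 CPM.

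Among genes at 100 CPM or more, the 6 largest increases lay between 1.47 and 1.76 on the log2 scale. *Ero1a*, the endoplasmic reticulum oxidase that drives disulfide formation, had 112, 119 and 114 CPM in Neg and 369, 372 and 397 in 3xKD (log2 fold change 1.72, SE 0.042). *Ddit4*, an inhibitor of mTORC1 induced by stress, had 156, 165 and 148 CPM in Neg and 504, 513 and 491 in 3xKD (1.69, SE 0.043). *Txnip*, which binds thioredoxin and restrains glucose uptake, had 494, 493 and 432 CPM in Neg and 1318, 1270 and 1334 in 3xKD (1.47, SE 0.049). The largest changes in each class of level were taken only from called genes whose libraries did not overlap between the lines. That separation was therefore set by the choice. *Dusp9*, a phosphatase that inactivates ERK (1.76, SE 0.047), *Ldhb*, a subunit of lactate dehydrogenase (1.62, SE 0.047) and *Ndrg1* (1.54, SE 0.074) completed the first 6.

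The 6 largest decreases at this level lay between −1.93 and −1.42. *Arid5b*, a DNA-binding partner of a histone demethylase, had 293, 291 and 293 CPM in Neg and 77.0, 78.0 and 75.4 in 3xKD (log2 fold change −1.93, SE 0.045). *Dido1*, a chromatin reader with a role in ESC differentiation, had 254, 273 and 259 CPM in Neg and 71.6, 73.9 and 73.5 in 3xKD (−1.84, SE 0.044). *Trpm1*, a cation channel, had 258, 247 and 240 CPM in Neg and 82.7, 81.8 and 84.0 in 3xKD (−1.58, SE 0.038). These genes were chosen by the same rule, so the separation of their libraries was set by the choice as well. *Zfp553* (−1.49, SE 0.040), the kinase *Sgk1* (−1.43, SE 0.045) and the glycosphingolipid enzyme *B4galt6* (−1.42, SE 0.040) followed.

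Between 10 and 100 CPM the largest changes went further. *Igfbp4*, a secreted protein that binds insulin-like growth factors, rose from 2.39, 1.72 and 1.94 CPM to 21.4, 21.03 and 19.4 (log2 fold change 3.37, SE 0.13). *Ltbp3*, which holds latent TGF-beta in the matrix, rose from 2.66, 2.62 and 3.31 CPM to 18.6, 21.5 and 21.6 (2.82, SE 0.12). *Hif3a*, a member of the hypoxia-inducible factor family (2.40, SE 0.090), *Ldc1* (2.23, SE 0.15), *Zc3h6* (2.21, SE 0.10) and *Zfp773* (2.17, SE 0.074) also rose. In the other direction, *Gpnmb*, a transmembrane glycoprotein of lysosomes and melanosomes, fell from 52.2, 49.2 and 55.5 CPM to 4.85, 3.96 and 3.99 (−3.61, SE 0.15). *Nefm*, the medium neurofilament subunit, fell from 21.6, 22.3 and 22.02 CPM to 2.03, 2.44 and 1.89 (−3.37, SE 0.12). *Sp5*, a WNT target and transcription factor, fell from 19.06, 19.13 and 21.5 CPM to 3.502, 3.60 and 3.59 (−2.48, SE 0.14). The remaining places belonged to genes of the Y chromosome, which are described further on.

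**Figure D2:**
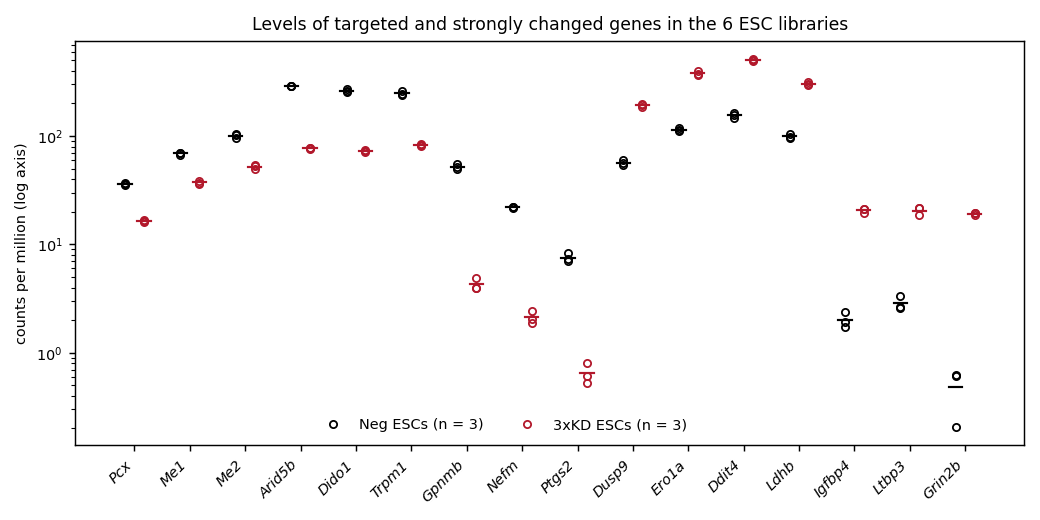
CPM on a log axis in the 3 Neg ESC libraries (black) and the 3 3xKD ESC libraries (red) for the targeted genes and for 13 genes with large changes; circles are libraries and bars are means. The 13 genes were taken from called genes whose libraries do not overlap between the lines, so their separation was set by that choice. The targeted genes were not chosen in this way, and their libraries do not overlap either.

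Genes between 1 and 10 CPM included near on-off changes. *Grin2b*, a subunit of the NMDA glutamate receptor, had 0.621, 0.207 and 0.612 CPM in Neg and 18.6, 19.7 and 19.5 in 3xKD (log2 fold change 5.29, SE 0.17). *Gbp2b*, an interferon-inducible GTPase, had 1 count in the 3 Neg libraries together and 241 in the 3xKD libraries, a ratio of 228 with a 95% interval from 40.6 to 9049 (exact, counting error only). The related *Gbp2* had 0 counts in Neg and 42 in 3xKD, at least 13.3-fold higher against a floor of 3 counts over the group. *Gbp2b* and *Gbp2* are similar in sequence, and how their reads were divided is uncertain. *H2-Q2* (3.92, SE 0.38), *Cyp2d22* (3.36, SE 0.32), *Cacng6*, a regulatory subunit of calcium channels (2.93, SE 0.14), and *Insl3* (2.93, SE 0.65) also rose.

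Decreases in this range were as follows. *Ptgs2*, the inducible cyclooxygenase that makes prostaglandins, had 7.27, 8.26 and 6.99 CPM in Neg and 0.799, 0.610 and 0.523 in 3xKD (log2 fold change −3.52, SE 0.24). *Rorb*, an orphan nuclear receptor (−3.83, SE 0.42), *Adgrg6*, an adhesion G protein-coupled receptor (−3.13, SE 0.20), and *Gm20662* (−3.11, SE 0.69) fell as well. *Cwc22rt7* had 576 counts over the Neg libraries and 0 over the 3xKD libraries, at least 203-fold lower against the same floor. It is one of a family of near-identical copies of *Cwc22*, in EpiLCs it was at 0 in the Neg line and at a mean of 12.9 CPM in the 3xKD line, and its level is therefore uncertain. The same holds for the pseudogenes *Obox4-ps21* (674 counts in Neg and 0 in 3xKD) and *Obox4-ps20* (0 and 662). Among other genes that encode no protein and had at least 5 CPM, the lncRNA *4930405N21Rik* (1.89, SE 0.16) and *Btnl7-ps* (1.86, SE 0.13) rose, *Gm28439* fell (−3.72, SE 0.63), and the snRNA gene *Gm24305* went from 860 counts to 0. *Gm28439* had 0, 0 and 179 counts in the 3xKD libraries and lost the call with DESeq2 and with transcript-length offsets. *Gm24305* lost the call without either of Neg ESCs replicates 1 and 2 or any 3xKD library.

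Genes were next described by 40 lists, each by the number of tested members called higher and lower and by the median log2 fold change, to be read against 8.50% higher, 6.76% lower and 0.03 over all genes. These shares include 10654 genes under 1 CPM, which were seldom called, whereas many lists hold mainly genes at 1 CPM or more. Among all genes from 1 to under 10 CPM 19.9% were called higher and 12.1% lower. From 10 to under 100 CPM 10.4% and 11.2% were, and at 100 CPM or more 6.01% and 5.88%. A list share not far above the shares over all genes may therefore reflect the level of its members. A gene may stand in more than one list. No list was tested as a set. Counts of 1 or 2 members are at the edge of the threshold in several lists and moved when 1 library was left out. Where offsets for the mean length of the transcripts in each library changed a count by over 1.5 times, that count is given too. Changes by 1 member in the cadherin, proteasome, DNA replication, small nucleolar RNA host and DNA methylation lists are left out.

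**Figure D3:**
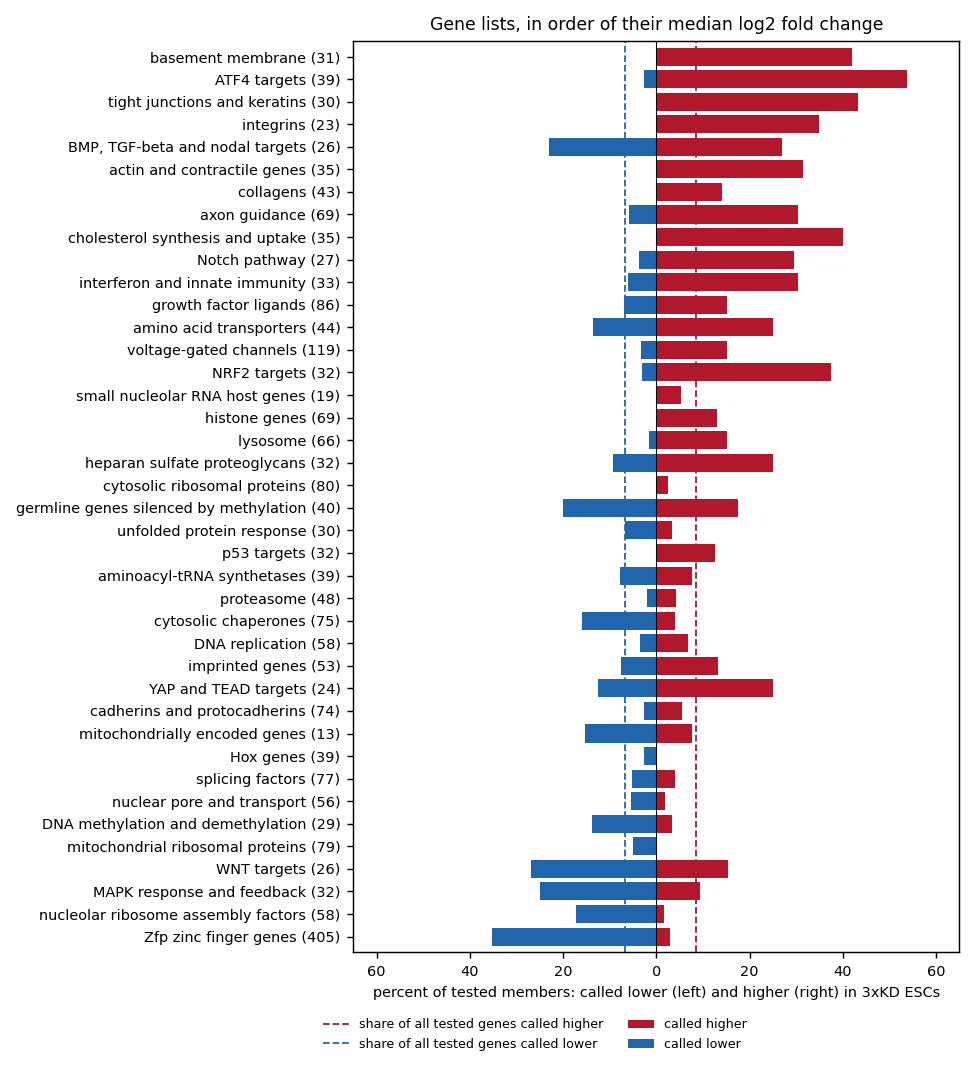
Bars give the percent of the tested members of each list that were called lower (blue, left) and higher (red, right) in 3xKD ESCs, with the number of tested members in parentheses and the shares over all tested genes as dashed lines. ATF4 targets (53.8%), tight junctions and keratins (43.3%) and basement membrane genes (41.9%) have the longest bars to the right, and Zfp zinc finger genes (35.3%) the longest to the left.

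Several lists of the extracellular matrix and of the structures that hold epithelial cells together had members called higher in 3xKD and none called lower. The basement membrane is the sheet of laminin, collagen IV and nidogen on which epiblast cells sit, and integrins anchor cells to it. Of 31 tested basement membrane and related matrix genes 13 were called higher and 0 lower (median 1.01, or 0.67 with genes at 0 counts in a group set to their bound). The laminin chain *Lama1* fell from a mean of 27.1 to 18.2 CPM (log2 fold change −0.579, SE 0.074), just short of the limit of 0.58. With DESeq2, with library size alone and without Neg ESCs replicate 1 or 2, among other alternatives, 1 basement membrane gene was called lower. Of 23 integrins 8 were higher and 0 lower (median 0.53), with 5 higher when transcript-length offsets were used, and of 43 collagens 6 were higher and 0 lower (median 0.46). Without 3xKD ESCs replicate 2, 1 collagen was called lower. *Fbn2*, a fibrillin of elastic microfibrils, rose from 3.10, 3.10 and 2.75 CPM to 12.7, 13.8 and 13.5 (log2 fold change 2.17, SE 0.12). *Fras1* (1.98, SE 0.16) and *Frem2* (1.89, SE 0.13), which form a complex under epithelia, rose together with the collagen IV chains *Col4a1* (1.24, SE 0.13) and *Col4a2* (1.27, SE 0.12). Among integrins, *Itga3* rose from 15.1, 17.5 and 16.7 CPM to 32.1, 34.6 and 35.9 (1.05, SE 0.071), and *Itga6* (0.84) and *Itgb4* (0.94), which pair as a laminin receptor, were also higher. *Col6a2* and *Itgb2* were called from 3 counts each in the 3 Neg libraries, at ratios of 6.94 (95% interval 2.09 to 36.2) and 9.15 (2.84 to 47.0), and both lost the call without any of several single libraries, Neg ESCs replicates 1 and 2 among them.

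Cell junction genes behaved alike. Of 30 genes of tight junctions, desmosomes and simple epithelial keratins 13 were called higher and 0 lower (median 0.62). *Krt7*, an intermediate filament of simple epithelia, rose from 1.06, 0.895 and 1.17 CPM to 5.04, 4.51 and 4.77 (log2 fold change 2.17, SE 0.22), and the desmosomal cadherin *Dsc2* from 1.24, 1.17 and 2.04 to 5.35, 7.13 and 6.47 (2.04, SE 0.24). *Cldn7*, a claudin of the tight junction, rose by 2.02 (SE 0.25). E-cadherin (*Cdh1*), the main adhesion molecule of ESCs, rose from a mean of 145 to 225 CPM (0.63). Of 74 cadherins and protocadherins 4 were higher and 2 lower (median −0.05), and *Cdh4* fell (−1.37, SE 0.18).

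Actin and contractile genes, 11 of 35 higher and 0 lower (median 0.47), included smooth muscle genes at very low levels. *Tagln* had 0.355, 0.482 and 0.255 CPM in Neg and 2.03, 1.65 and 1.76 in 3xKD (log2 fold change 2.33, SE 0.30), and *Acta2* had 2 counts in Neg and 40 in 3xKD, a ratio of 18.9 (95% interval 4.91 to 162). The filamin *Flnc* was higher at a more usual level (from a mean of 6.69 to 16.1 CPM, 1.26, SE 0.081). Heparan sulfate proteoglycans and the enzymes that make their chains had 8 of 32 higher and 3 lower (median 0.17), and 5 higher with transcript-length offsets. The glypican *Gpc3* rose from 4.70, 4.68 and 5.76 CPM to 14.7, 12.99 and 18.6 (1.59, SE 0.13), whereas *Ext1*, a polymerase of the heparan sulfate chain, fell from 44.5, 49.9 and 49.0 CPM to 28.6, 28.5 and 27.4 (−0.77, SE 0.057). The count of 3 lower was 1 without Neg ESCs replicate 3.

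Markers of fibroblasts, primitive endoderm and trophoblast, cell types that could add matrix or junction genes to a culture, were also measured. The marker lists hold no muscle type. The 8 tested fibroblast markers summed to between 13.1 and 15.9 CPM in Neg and to between 35.7 and 37.9 in 3xKD, with 3 of 8 called higher. The largest part was *Pdgfrb*, a growth factor receptor, at a mean of 7.16 CPM in Neg and 23.7 in 3xKD, and *Thy1* (3.66 and 6.57) and *Twist1* (2.34 and 5.07) were also called higher. The other 5 were not called. *Col1a1* had means of 0.814 and 1.46 CPM, and *Col1a2*, *Col3a1*, *Dcn* and *Twist2* had means under 0.2 CPM in both lines. The 11 primitive endoderm markers summed to between 55.5 and 57.9 CPM in Neg and to between 60.8 and 63.8 in 3xKD, with 3 higher (*Col4a1*, *Dab2* and *Gata6*) and 0 lower. The 11 trophoblast markers summed to between 81.2 and 84.2 CPM and to between 100.9 and 113 CPM, with 3 higher and 1 lower. The part of such cells in the matrix and junction results was not tested.

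Axon guidance molecules, which also steer adhesion and repulsion between cells outside the nervous system, had 21 of 69 members higher and 4 lower (median 0.46), and 11 higher with transcript-length offsets. The semaphorin *Sema4g* rose from 9.48, 8.95 and 8.97 CPM to 30.1, 29.5 and 30.2 (log2 fold change 1.71, SE 0.071). The netrin receptor *Dcc* fell from 8.42, 8.81 and 9.02 CPM to 1.84, 2.93 and 3.136 (−1.73, SE 0.17) and the semaphorin receptor *Nrp2* from 10.7, 13.6 and 11.6 to 4.61, 4.09 and 4.97 (−1.40, SE 0.15). Of 27 Notch pathway genes 8 were higher and 1 lower (median 0.43). The receptor *Notch3* rose from 49.6, 53.3 and 50.8 CPM to 137, 136 and 130 (1.39, SE 0.044), the ligand *Jag2* by 1.03 (SE 0.061), and the coactivator *Maml2* fell (−1.91, SE 0.24).

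Readouts of the ERK branch of MAPK signalling were called lower more often than higher. Sprouty proteins and dual-specificity phosphatases are switched on by ERK and dampen it in return. Of 32 immediate response and feedback genes 8 were called lower and 3 higher (median −0.34). *Spry2* had a mean of 40.3 CPM in Neg and 12.1 in 3xKD (log2 fold change −1.74, SE 0.058), and the ETS factor *Etv1* 24.6 and 10.1 (−1.30, SE 0.079). *Myc* fell from 3.10, 4.13 and 5.71 CPM to 1.29, 0.976 and 0.849 (−2.10, SE 0.21), and *Spry4* from 1.60, 2.00 and 1.89 to 0.614, 0.610 and 0.327 (−1.81, SE 0.18). The 3 that rose were the stress-responsive *Ier3* (1.90, SE 0.13), *Maff* (1.35, SE 0.11) and *Fos* (0.79, SE 0.15). *Dusp9*, which is not on this list, rose as given above.

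Targets of WNT and BMP signalling were called in both directions. Of 26 WNT targets 7 were lower and 4 higher (median −0.27), and with transcript-length offsets 4 were lower. Beside *Sp5*, the cell cycle gene *Ccnd1* fell from a mean of 107 to 26.7 CPM (log2 fold change −2.01, SE 0.063), and the caudal factor *Cdx2* from 2.75, 2.62 and 3.21 CPM to 0.492, 0.427 and 0.588 (−2.50, SE 0.35). *Sfrp2*, a secreted WNT antagonist, and *Nkd1*, an intracellular one, rose (0.81, SE 0.079, and 0.85, SE 0.13). Of 26 targets and regulators of BMP, TGF-beta and nodal signalling 7 were higher and 6 lower (median 0.53). *Id3*, a direct BMP target, fell from 2.75, 3.17 and 4.33 CPM to 1.11, 1.77 and 1.18 (−1.35, SE 0.27), and *Id1* fell at under 1.4 CPM (−1.83, SE 0.42), a call that was lost without 3xKD ESCs replicate 2 or Neg ESCs replicate 3. The nodal co-receptor *Tdgf1* rose from a mean of 140 to 338 CPM (1.27, SE 0.047) while *Nodal* itself fell from 86.5 to 43.6 (−0.99, SE 0.051). *Fstl3*, which binds activin, rose by 2.11 (SE 0.26).

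Growth factor ligands moved both ways, with 13 of 86 higher and 6 lower (median 0.37, or 0.47 with genes at 0 counts at their bound), and 3 lower with transcript-length offsets. *Igf2*, an imprinted growth factor, rose from 1.33, 0.757 and 1.07 CPM to 6.88, 8.66 and 7.97 (log2 fold change 2.91, SE 0.23), and *Bmp6* from 1.24, 1.72 and 1.33 to 5.96, 5.43 and 5.29 (1.95, SE 0.16). *Vegfc*, a growth factor of lymphatic vessels, fell from 24.4, 25.2 and 26.1 CPM to 7.004, 8.29 and 7.45 (−1.73, SE 0.080). *Fgf18* fell at under 0.7 CPM (−2.58, SE 0.63) and lost the call without any of 3 libraries (3xKD replicates 2 and 3 and Neg replicate 2). YAP and TEAD target genes had 6 of 24 higher and 3 lower (median −0.02), with *Tead2* up from 68.2, 67.1 and 62.7 CPM to 129, 133 and 122 (0.96, SE 0.046), *Gadd45b* up by 1.24 (SE 0.092) and *Lats2* down by −0.91 (SE 0.13). The count of 3 lower was 1 without Neg ESCs replicate 1 or 3xKD ESCs replicate 2 and with transcript-length offsets, where *Lats2* was not called.

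Among the stress responses, the genes driven by ATF4 stood out. ATF4 is made when translation is slowed by the integrated stress response, and it switches on amino acid synthesis and transport through a composite C/EBP and ATF element. Of 39 tested ATF4 targets 21 were called higher and 1 lower (median 0.70). *Nupr1*, a small stress-induced chromatin protein, rose from 6.83, 8.19 and 7.24 CPM to 28.7, 29.8 and 30.1 (log2 fold change 1.99, SE 0.10). *Ddit3*, which encodes CHOP, rose from a mean of 12.3 to 48.9 CPM (1.99, SE 0.063), and a second gene record of *Ddit3* from 2 counts to 30, a call that was lost without Neg ESCs replicate 3 and with transcript-length offsets. The glycine transporter *Slc6a9* rose from 3.19, 2.68 and 2.14 CPM to 9.40, 10.7 and 10.8 (1.98, SE 0.16), but with transcript-length offsets its log2 fold change was 0.51 and it was not called, and its mean TPM, which takes transcript length into account, was 2.64 in Neg and 3.44 in 3xKD. The only member called lower was *Slc38a2*, a glutamine transporter, which fell from 220, 232 and 246 CPM to 133, 118 and 127 (−0.88, SE 0.051).

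The promoters of these genes were searched for TGATGCAA, one form of the composite element, on both strands of the 300-base RefSeq promoters (GRCm38.p6, 250 bases before to 50 after the start). The letters were present in 8 of 33 ATF4 targets with a promoter (24.2%), in 5 of the 18 called higher (27.8%), and in 103 of 14450 tested genes with a promoter (0.713%). The 30 bases around the element are printed for 4 of the genes called higher to show where the searched letters lie, in the direction of the gene, with the element in capitals.
Nupr1: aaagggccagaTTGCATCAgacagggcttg
Vldlr: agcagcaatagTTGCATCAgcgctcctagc
Chac1: cttccctgccgTTGCATCActcctgccagg
Pycr1: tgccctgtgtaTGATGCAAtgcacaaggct
They lie at chr7:126625562-126625591 on the minus strand, chr19:27216809-27216838 on the plus strand, chr2:119351038-119351067 on the plus strand and chr11:120643833-120643862 on the minus strand. The log2 fold changes of these genes were 1.99 for *Nupr1*, 1.48 (SE 0.12) for *Vldlr*, a lipoprotein receptor, 0.73 (SE 0.13) for *Chac1*, which degrades glutathione, and 1.00 (SE 0.076) for *Pycr1*, an enzyme of proline synthesis. *Aars*, *Fgf21* and *Slc7a11* carry the same letters and were not called (0.52, 1.76 and 0.41). A match describes the sequence and says nothing of binding in these cells.

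The endoplasmic reticulum has stress pathways of its own beside ATF4. Of 30 genes of the unfolded protein response 1 was higher and 2 lower (median 0.11). *Herpud1*, which is also an ATF4 target, rose (0.84, SE 0.090) and *Dnajb9*, a target of the XBP1 branch, fell from 18.8, 16.8 and 16.6 CPM to 11.4, 10.5 and 9.41 (−0.73, SE 0.083). With transcript-length offsets 0 were higher and 1 other member lower, *Herpud1* (0.60) and *Dnajb9* (−1.001) were not called, and *Derl3*, the other gene called lower, reversed (0.20). Of 32 NRF2 targets, the antioxidant genes, 12 were higher and 1 lower (median 0.33), and the one lower was the repressed *Me1*. *Abcc1*, a glutathione conjugate exporter, rose from 34.4, 37.5 and 34.2 CPM to 93.3, 91.3 and 93.0 (1.39, SE 0.049), and the lipid peroxidase *Gpx4* from a mean of 193 to 438 (1.18, SE 0.038). *Abcc1* lies on chromosome 16, which was high as a whole (below). Of 32 p53 targets 4 were higher and 0 lower (median 0.08), among them *Plk3* (1.24, SE 0.060) and *Pltp* (1.37, SE 0.13).

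Genes of interferon and antigen presentation had 10 of 33 members higher and 2 lower (median 0.43, or 0.53 with genes at 0 counts at their bound), and 5 higher with transcript-length offsets. *Tap1*, the peptide transporter for class I molecules, rose from 3.72, 5.02 and 4.74 CPM to 17.8, 18.0 and 19.6 (log2 fold change 2.02, SE 0.10), and the class I gene *H2-K1* from a mean of 15.6 to 41.7 (1.41, SE 0.078). *Rigi*, the cytosolic sensor of viral RNA, went the other way, from 15.7, 16.3 and 17.2 CPM to 3.69, 4.09 and 3.136 (−2.17, SE 0.14), and so did *Irf9* (−0.92, SE 0.14), a subunit of the interferon-activated factor ISGF3. The list of cytosolic chaperones also holds membrane and mitochondrial proteins, *Dnajc25* and *Dnajc30* among them. Of its 75 tested genes 12 were called lower and 3 higher, with 38 above 0 and a median of 0.02. *Hsph1*, a partner of HSP70, fell from a mean of 232 to 110 CPM (−1.07), and *Dnajc30* and *Dnajc25* fell by −1.22 and −1.18 (SE 0.16 and 0.12), while *Hspa1a*, the inducible HSP70, rose from 4.34, 6.40 and 7.34 CPM to 13.95, 14.4 and 13 (1.16, SE 0.14).

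Genes of membranes, lipids and transport were described next. Cells sense sterols through SREBP2, which switches on the whole synthesis pathway. Of 35 genes of cholesterol synthesis and uptake 14 were called higher and 0 lower (median 0.46). *Dhcr7*, the last enzyme of the pathway, rose from 55.2, 57.6 and 51.5 CPM to 141, 146 and 142 (log2 fold change 1.39, SE 0.043), and *Msmo1*, which acts earlier in it, from a mean of 80.1 to 172 (1.103, SE 0.049). Of 44 amino acid transporters 11 were higher and 6 lower (median 0.36). *Slc1a4*, which carries serine and alanine, rose from a mean of 25.6 to 66.4 CPM (1.37, SE 0.060), while *Slc6a15*, a carrier of branched-chain amino acids and proline, fell from 1.42, 1.38 and 1.48 CPM to 0.430, 0.244 and 0.196 (−2.26, SE 0.30; not called with transcript-length offsets), and the arginine and lysine transporter *Slc7a3* fell from a mean of 40.2 to 20.9 (−0.95). Of 66 lysosomal genes 10 were higher and 1 lower (median 0.21). The member called lower was *Atp6v0a2*, a subunit of the proton pump (−0.86, SE 0.063), a call that was lost with transcript-length offsets. Voltage-gated and related ion channels had 18 of 119 higher and 4 lower (median 0.33), most at low levels. *Cacna1s*, a calcium channel of muscle, fell from 21.5, 22.2 and 21.8 CPM to 7.13, 6.89 and 6.73 (−1.66, SE 0.092), and the count of 4 lower was 2 without 3xKD ESCs replicate 3. With transcript-length offsets 9 channels were higher and 1 lower.

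Ribosomes are assembled in the nucleolus by a large set of factors. Of 58 nucleolar assembly factors and RNA polymerase I subunits 10 were called lower and 1 higher, and 53 of 58 had a log2 fold change below 0 (median −0.35). *Polr1g*, a subunit of RNA polymerase I, fell from 44.9, 48.2 and 47.0 CPM to 25.7, 26.2 and 23.7 (log2 fold change −0.89, SE 0.065). The exception was *Dkc1*, the pseudouridine synthase that also serves telomerase, which rose from 237, 246 and 233.7 CPM to 375, 355 and 369 (0.62, SE 0.044). Of 80 cytosolic ribosomal protein genes 2 were called, both higher, with 76 above 0 and a median of 0.12. Those called, *Rpl24* (0.60, SE 0.056) and *Rpl35a* (0.61, SE 0.050), lie on chromosome 16, and the count was 0 without Neg ESCs replicate 2 and 1 without Neg ESCs replicate 3. Of 79 mitochondrial ribosomal protein genes 4 were lower and 0 higher (median −0.13), which became 2 lower and 2 higher without 3xKD ESCs replicate 1. With transcript-length offsets 2 were called higher. The largest change was that of *Mrps11* at −0.79 (SE 0.068).

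Of 39 aminoacyl-tRNA synthetases 3 (7.69%) were higher and 3 (7.69%) lower (median 0.06), near the shares of all genes. The higher ones were *Vars* (0.81, SE 0.038), *Sars* (0.70, SE 0.037) and *Gars* (0.64), and the lower ones *Wars2* (−0.83, SE 0.098), *Mars2* (−0.76, SE 0.065) and *Ears2* (−0.64). Splicing factors (3 of 77 higher and 4 lower), nuclear pore and transport genes (1 of 56 higher and 3 lower) and proteasome genes (2 of 48 higher and 1 lower) had shares at or below those of all genes. Single members stood out, such as the splicing regulator *Srsf6*, which fell from 228, 233 and 252 CPM to 109, 114 and 114 (−1.08, SE 0.053), the pore component *Nup35* (−1.11, SE 0.066) and the proteasome activator *Psme4*, which fell from 434, 456 and 450 CPM to 245, 246 and 254 (−0.85, SE 0.035). DNA replication genes had 4 of 58 higher and 2 lower (median −0.01). Of 69 histone genes, which this library type captures although their messages lack a poly(A) tail, 9 were higher and 0 lower (median 0.30), and the 9 became 17 without Neg ESCs replicate 1 and 14 without 3xKD ESCs replicate 3. *H2bc8* rose from a mean of 387 to 723 CPM (0.90, SE 0.061). Of the 13 messages of the mitochondrial genome *mt-Nd1* (−0.76, SE 0.092) and *mt-Cytb* (−0.74, SE 0.11) fell and *mt-Nd6*, the one encoded on the other strand, rose from 45.3, 34.4 and 47.8 CPM to 95.3, 82.6 and 75.0 (0.99, SE 0.13). Of 19 small nucleolar RNA host genes 1 was called, *Snhg11*, which rose from 15.8, 14.6 and 14.7 CPM to 44.9, 36.7 and 38.4 (1.42, SE 0.079).

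The broadest shift toward lower levels was in zinc finger genes. Genes named Zfp encode proteins with C2H2 zinc fingers, many of which carry a KRAB domain and silence transposons through TRIM28. Of 405 tested Zfp genes 143 (35.3%) were called lower and 12 (2.96%) higher, with a median of −0.40. The shift held in each class of level from 1 CPM up. Between 1 and 10 CPM 41 of 132 were lower, between 10 and 100 CPM 84 of 211 were lower (39.8%, against 11.2% of all genes of that class), and at 100 CPM or more 14 of 34 were lower. It was spread over the genome. Of the 20 chromosomes with a Zfp gene at 1 CPM or more 18 had a median below 0, among them chromosome 7 with 36 of 90 lower, chromosome 17 with 19 of 45 and chromosome 4 with 14 of 30. *Zfp719* fell from a mean of 14.1 to 3.27 CPM (log2 fold change −2.10, SE 0.13). Those with the largest folds, *Zfp658* (−2.59, SE 0.65) and *Zfp300* (−2.35, SE 0.58), lay under 1 CPM and each lost the call without any of 4 libraries. *Zfp773* rose against the family, from 9.57, 11.4 and 10.8 CPM to 49.2, 48.6 and 46.3 (2.17, SE 0.074). With transcript-length offsets 91 Zfp genes were called lower and 7 higher.

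Genes listed for silencing by DNA methylation or for imprinting showed no common direction. They were not silent in these ESCs, since 40 of the 40 germline genes and 44 of the 53 imprinted genes had a mean of at least 1 CPM. Of 40 germline genes 7 were higher and 8 lower (median 0.12), with *Smc1b*, a meiotic cohesin subunit, up from 20.03, 19.7 and 15.6 CPM to 40.5, 39.6 and 44.4 (1.19, SE 0.095) and the piRNA pathway helicase *Tdrd9* down from 13.7, 17.8 and 15.9 to 6.88, 5.37 and 4.77 (−1.48, SE 0.15), although *Tdrd9* was not called with transcript-length offsets. Of 53 imprinted genes 7 were higher and 4 lower (median −0.02). Beside *Igf2*, its neighbour *H19* (1.09, SE 0.11) and *Sgce* (1.43, SE 0.10) rose, and *Peg13*, a non-coding RNA, fell from 7.62, 6.75 and 7.39 CPM to 1.35, 1.097 and 1.37 (−2.50, SE 0.18). Of 29 genes of DNA methylation and its removal 4 were lower and 1 higher (median −0.11). *Uhrf1*, which brings DNMT1 to replicated DNA, rose from 596, 616 and 588 CPM to 910.0, 927 and 926 (0.62, SE 0.029), and *Dnmt3l* (−0.64, SE 0.039), *Tet2* (−0.64) and *Setdb1* (−0.61) fell. Of 39 Hox genes 1 was called, *Hoxa7*, lower (−1.12, SE 0.19), and 0 were lower with transcript-length offsets.

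Genes of the Y chromosome stood apart from all others. All 8 protein-coding Y genes at 1 CPM or more were called lower, with log2 fold changes from −3.14 to −2.44. *Uba1y*, a ubiquitin-activating enzyme, had 101, 113 and 102 CPM in Neg and 17.9, 15.97 and 18.1 in 3xKD (−2.61, SE 0.059). *Ddx3y*, an RNA helicase, had 63.3, 61.0 and 65.1 CPM in Neg and 8.97, 7.44 and 9.47 in 3xKD (−2.87, SE 0.081). *Uty*, a relative of histone demethylases, had 31.9, 31.3 and 31.0 CPM in Neg and 3.81, 3.17 and 3.66 in 3xKD (−3.14, SE 0.099). *Eif2s3y* (−2.44), *Zfy1* (−2.59), *Kdm5d* (−2.64), *Zfy2* (−2.69) and *Usp9y* (−3.08) moved by much the same amount. Their summed level was between 259 and 268 CPM in the Neg libraries and between 38.0 and 42.0 in the 3xKD libraries, 15.4% of Neg. None of the 7 X-linked partners was called. Their log2 fold changes were 0.34 for *Uba1*, −0.01 for *Kdm5c*, −0.02 for *Eif2s3x* and *Ddx3x*, −0.15 for *Usp9x*, −0.33 for *Kdm6a* and −0.35 for *Zfx*, and in *Uba1*, *Usp9x*, *Kdm6a* and *Zfx* the libraries of the lines did not overlap. Likewise 0 of the 5 other Y records at that level, pseudogenes and non-coding RNAs with copies elsewhere, were called. The same fall was present in EpiLCs, where the summed level in 3xKD was 15.7% of Neg. The number of cells with a Y chromosome was not measured by these data.

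**Figure D4:**
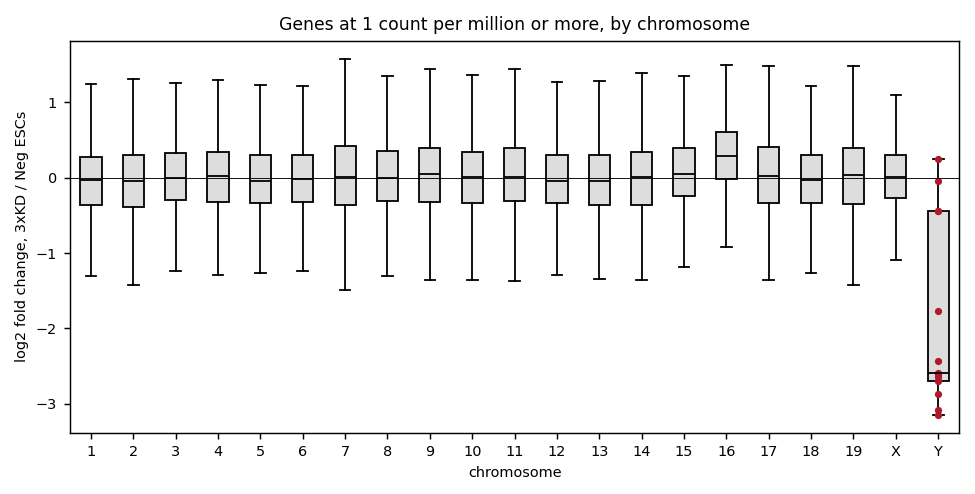
Log2 fold changes between 3xKD and Neg ESCs of genes at 1 CPM or more, by chromosome; boxes are quartiles with the median as a line, whiskers reach 1.5 times the box, points beyond are not drawn, and the red points are the 13 Y genes. The median of chromosome 16 (0.29) lies above the medians of the other autosomes and X, which are within 0.05 of 0, and 8 of the Y genes lie below −2.4.

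Chromosome 16 was high along its length. Its 454 genes at 1 CPM or more had a median log2 fold change of 0.29, with 106 (23.3%) called higher and 21 (4.63%) lower, and 73.8% lay above 0 compared with 50.1% of all genes at that level. In windows of 20 Mb from one end to the other the medians were 0.27, 0.29, 0.27, 0.14 and 0.40. The other autosomes and the X chromosome had medians from −0.04 to 0.05. In EpiLCs the median of chromosome 16 was 0.30. DNA copy number was not measured by these data. Leaving out the genes of chromosomes 16 and Y left 2050 higher and 1690 lower of 24671 genes.

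The state of the cells was checked with markers, since the labels name every Neg library as ESCs and every 3xKD library as EpiLCs day 2 in their cell type entry, against the titles. The 12 naive markers summed to between 5731 and 5909 CPM in Neg ESCs and to between 4390 and 4464 in 3xKD ESCs, compared with 747 to 766 in Neg EpiLCs. *Nanog* had a mean of 1020 CPM in Neg ESCs and 1109 in 3xKD ESCs, *Esrrb* 1148 and 905, and *Tfcp2l1* 1057 and 885. The 10 EpiLC markers summed to between 544 and 562 CPM in Neg ESCs and to between 485 and 501 in 3xKD ESCs. In Neg EpiLCs they summed to between 4519 and 4950. Among them *Fgf5* (0.394 and 0.267 CPM), *Otx2* (1.48 and 0.641) and *Pou3f1* (2.94 and 3.67) were low in both ESC groups. *Pou3f1* reached 245 CPM in Neg EpiLCs. *Zic2* (171 and 116), *Dnmt3a* (139 and 182), *Dnmt3l* (103 and 66.3) and *Dnmt3b* (92.2 and 85.4) were not low. Of the 10, *Sox3* was called higher and 3 lower (*Otx2*, *Dnmt3l* and *Lef1*). The 3 libraries titled as 3xKD ESCs therefore carry the expression of ESCs and not the state in that entry. Within that state 6 of the 12 naive markers were called lower and 0 higher, *Zfp42* most (from 529, 518 and 502 CPM to 226, 212 and 206, log2 fold change −1.27, SE 0.043), with *Klf5* (−0.95), *Nr0b1* (−0.94), *Klf2* (−0.83), *Dppa3* (−0.82) and *Klf4* (−0.65). Markers of mesoderm (9 tested, 0 called), neuroectoderm (10 tested, 1 higher and 1 lower), germ cells (8 tested, 2 higher and 2 lower) and the 2-cell-like state (10 tested, 0 higher and 1 lower) showed no shared direction.

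The same contrast in EpiLCs day 2, where both lines were measured in libraries of their own, shows which ESC changes recurred. There 2005 genes (7.88%) were called higher and 1362 (5.35%) lower. Of the 2164 genes higher in ESCs 1123 (51.9%) were also called higher in EpiLCs and 21 lower. Of the 1721 lower in ESCs 734 (42.6%) were also called lower and 20 higher. The difference of the 2 effects was tested for every gene, and 2553 of 25446 (10%) had an adjusted p under 0.01. Among genes called higher in ESCs 461 (21.3%) had such a difference, with the larger rise in ESCs in 421, and among those called lower 462 (26.8%) did, with the larger fall in ESCs in 440. Genes called in ESCs were picked there, which favours a larger change in ESCs in these last counts.

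Some lists differed between the states in their counts. Among the p53 targets 4 rose and 0 fell in ESCs, while in EpiLCs 4 rose and 12 fell, and the effect differed for 20 of 32 genes. In EpiLCs nucleolar factors had 14 lower and 0 higher, and the effect differed for 6 of 58, near the share of all genes. ATF4 targets had 18 higher and 1 lower there, with an effect that differed for 10 of 39, and Zfp genes 99 lower and 11 higher, with 59 of 405 that differed. Of the genes at 10 CPM or more in ESCs, *Gpnmb* fell in ESCs and was called higher in EpiLCs (−3.61 against 1.47). Its mean in EpiLCs was under 1 CPM in both lines. *Sp5* (−2.48 against 1.11) and *Pla2g4e*, a phospholipase (−2.05 against 0.07), were also under 1 CPM in every EpiLC library but were not called there. *Nefm* fell in both states, by more in ESCs (−3.37 against −0.92), and *St8sia1*, a ganglioside synthase, fell in ESCs and rose in EpiLCs (−1.50 against 0.65). In the other direction the receptor *Cntfr* (1.29 against −1.36), the transcription factors *Myrf* (1.52 against −0.67) and *Foxp1* (1.21 against −0.88), the junction protein *Cgnl1* (1.75 against −0.10) and *Igdcc4* (0.71 against −1.12) rose in ESCs and not in EpiLCs. For *Cntfr* the levels were 7.27, 5.85 and 5.91 CPM in Neg ESCs, 14.6, 16.04 and 15.4 in 3xKD ESCs, and means of 97.7 in Neg EpiLCs and 37.9 in 3xKD EpiLCs.

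**Figure D5:**
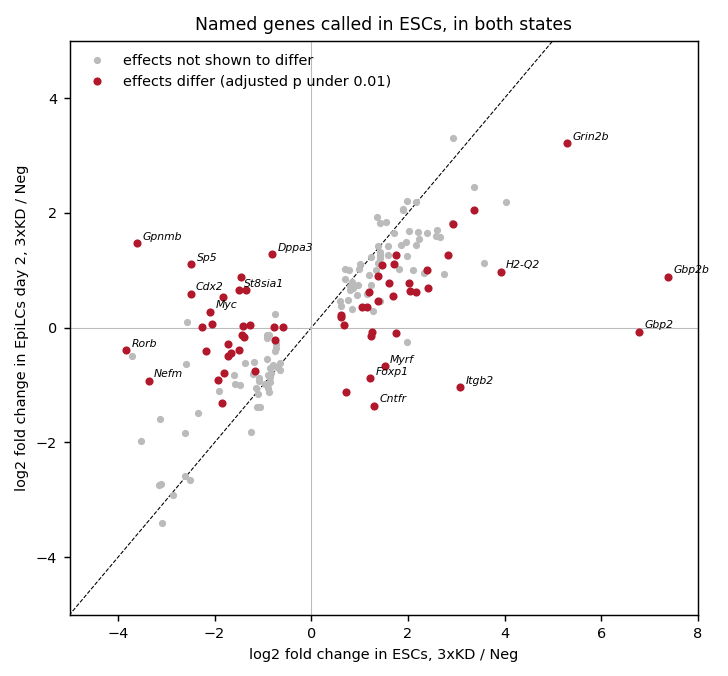
Log2 fold change between 3xKD and Neg in ESCs (x) and in EpiLCs day 2 (y) for the 171 named genes called in ESCs, of which 4 with 0 counts in a group lie outside the axes. Red points are genes whose effects differ between the states at an adjusted p under 0.01 (edgeR's quasi-likelihood test), and the dashed line marks equal effects. Most points lie along the line, and *Gpnmb*, *Sp5*, *Cntfr*, *Myrf* and *Foxp1* lie across the 0 line in one of the states.

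The 6 ESC libraries held between 11221023 and 19652197 estimated counts and between 24386 and 27284 genes with a count. Between libraries of a group the counts differed beyond what sampling gives (a chi-square of 2.99 to 11.6 per degree of freedom, the highest values in pairs with Neg ESCs replicate 2). The counts are estimates that also vary with how reads are divided among similar genes. These values therefore cannot show whether the libraries came from separate cultures or RNA. In the study's methods ribosomal RNA was depleted and libraries were directional, whereas the molecule entry of the labels names polyadenylated RNA.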

How the data were processed

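RNA was sequenced from 12 libraries, of which the 6 ESC libraries form the comparison. The authors trimmed reads with Trim Galore (0.6.7) and used STAR (2.7.9a) and Salmon (1.10.1), per the submitters' processing notes, and deposited estimated counts per transcript, which need not be whole. These estimated counts were added up within each of 57180 genes and rounded. The TPM values that the authors deposited beside them, scaled to effective transcript length by Salmon, served for the transcript-length offsets. Genes with at least 10 counts over the 12 libraries (25446) were fitted in edgeR (4.0.16, R 4.3.3) by the quasi-likelihood test with TMM factors and 4 groups, and p-values were adjusted by Benjamini and Hochberg over all of them. A gene was called where its adjusted p lay under 0.01 and its log2 fold change beyond 0.58 in either direction. CPM values are those counts scaled to library size with TMM factors. The test of the difference between states is the interaction of the same fit. Each SE is the absolute log2 fold change divided by the square root of the F statistic of its test. It is no separate estimate, and it is unreliable for fold changes near 0 and at low counts. On simulated counts for the ESC comparison (24825 genes), 100 genes were changed by 1 on the log2 scale and 100 by 2. The changed genes were drawn from those above a minimum mean count, and every gene had the trended spread of its level. The test recovered 80% of the genes changed by 1 and 98% of those changed by 2, with 2 calls among unchanged genes. Recovery of genes at lower counts, and a spread particular to each gene, were not covered. Ratios with 1 to 3 counts in a group carry exact 95% intervals, and these and the floor of 3 counts cover counting error only.

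Samples were grouped by title and library name, since the cell type field disagrees with both. Named genes are the targeted genes and tested genes starting within 50 kb, the 6 largest called protein-coding genes in each direction in each of 3 level classes (from 1, 10 and 100 CPM) whose groups did not overlap, the 3 largest called non-coding genes in each direction at 5 CPM or more, per list the 2 called members that rose most and the 2 that fell most (where none was called, the most abundant), the 5 genes with the largest difference between states in each direction, and cell type markers. Other list members, the genes of the Y chromosome and genes near partial guide matches were named after their values were seen. The lists, members and tests were chosen with earlier results of these data known. Alternatives were RLE, upper-quartile and no scaling factors, DESeq2 (1.42.0), other filters, transcript-length offsets, the ESC libraries alone, a replicate block, other thresholds and leaving out each library. Some members of the lists that the rule for named genes picks are not reported here.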

Additional observations from a re-analysis of the deposited data

Results flagged for a closer look

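Of 174 named genes, 64 had an effect that differed between ESCs and EpiLCs day 2 at an adjusted p under 0.01 in edgeR's quasi-likelihood interaction test, and 23 of them differed by more than 2 on the log2 scale. Each value that follows is the log2 fold change in ESCs minus that in EpiLCs. It was below 0 for *Gpnmb* (−5.08), *Sp5* (−3.59), *Rorb* (−3.44), *Cdx2* (−3.09), *Nefm* (−2.45), *Myc* (−2.38), *Id1* (−2.36), *Hs3st1* (−2.33), *Slc6a15* (−2.27), *St8sia1* (−2.15), *Pla2g4e* (−2.12), *Dppa3* (−2.09) and *Id3* (−2.01). It was above 0 for *H2-Q2* (2.95), *Cntfr* (2.66), *Myrf* (2.19), *Foxp1* (2.10) and *Grin2b* (2.08). In EpiLCs *Gpnmb*, *Sp5*, *Rorb*, *Cdx2* and *Pla2g4e* had means under 1 CPM in both lines. *Hs3st1* and *Dppa3* had means under 1 CPM in Neg EpiLCs. For all of these genes the difference rests on few counts in EpiLCs. The values of *Cwc22rt7* (−21.28), *Obox4-ps21* (−12.40) and *Gbp2* (6.86) come from groups with 0 counts, and those of *Gbp2b* (6.50) and *Itgb2* (4.12) from 1 and 3 counts over the Neg ESC libraries. They depend on the prior count of the fit and are no measure of size. Groups of 3 libraries were not searched for single libraries that stand apart.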

How the results depend on the processing

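The targeted genes kept their direction and call in every alternative run for them, with log2 fold changes from −1.16 to −1.10 for *Pcx*, −0.92 to −0.86 for *Me1* and −0.99 to −0.92 for *Me2* when 1 library was left out. The 3885 calls became 1849 (1109 higher and 740 lower) with an absolute log2 fold change above 1, and 10142 (5109 higher and 5033 lower) at an adjusted p under 0.05 with no fold limit. Leaving out 1 library gave between 3417 and 3735 calls (1876 to 2120 higher, 1443 to 1702 lower) and between 2084 and 2311 genes whose effect differed between states. The other alternatives gave from 2789 calls (transcript-length offsets) to 4278 (no filter), and DESeq2 gave 3493. With transcript-length offsets the genes whose effect differed between states fell from 2553 to 727, and *Derl3* (0.20) and *Syt12* (−0.70) reversed; the cause was not tested. Of 171 named genes that were called, 126 kept the call in every alternative that tested them and 45 lost it in at least 1. Beside the genes for which this is said above, *Dnajc25*, *Insl3*, *Gm24305*, *Obox4-ps20*, *Obox4-ps21*, *Itgb2*, *Zfp658* and *Hs3st1* lost it with transcript-length offsets.

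Replicate numbers did not pair the libraries, as the deviations of same-numbered Neg and 3xKD ESC libraries correlated at 0.0822, −0.0518 and −0.0847. With a replicate block 3683 genes were called (2042 higher and 1641 lower), 2150 differed between states, and *Pcx*, *Me1* and *Me2* stood at −1.14, −0.89 and −0.95.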
